A study of Mus musculus with 24 samples.

Results

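Cell cycle genes were followed in fibroblasts sorted from mouse colon. The 35 members, named by symbol, cover mitosis (cyclins, kinases, checkpoint, kinetochore and spindle) and DNA replication. Each was taken from the probe set annotated to exactly that symbol, the brightest where a gene had several, and 34 of 35 were measured among 30827 named genes. Ccnb1, a mitotic cyclin, was not listed in the probe annotation used here, so it has no value. The study, whose title concerns the Hedgehog pathway in the formation of colonic adenomas, hybridised RNA from 24 samples to Affymetrix mouse transcriptome arrays, 1 array per sample. All mice carried Villincre-ERT2, an inducible Cre recombinase under the promoter of Villin, a gene of the intestinal epithelium, and ZsGreen, a green fluorescent protein. The control genotype, Villincre-ERT2-ZsGreen-IhhWT-ApcWT, has 7 arrays and is called WT. Villincre-ERT2-ZsGreen-IhhWT-ApcKO, which lacks the tumour suppressor Apc where Cre was active, has 8 arrays and is called ApcKO. Villincre-ERT2-ZsGreen-IhhKO-ApcKO, which also lacks the ligand Indian hedgehog, has 9 arrays and is called IhhKO_ApcKO. The sort kept cells negative for Epcam (epithelium), CD45 (leukocytes) and CD31 (endothelium) and positive for gp38, or podoplanin. The driver puts both deletions in epithelium, so the sorted cells are the neighbours of the deleted cells. The labels give no age or sex, no schedule of induction, and no statement that each array is a separate mouse, so the p-values measure the spread between these samples, which may in part be technical.

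A dividing cell first licenses and copies its DNA and then separates the copies in mitosis. The Mcm helicase, the sliding clamp Pcna and enzymes that supply nucleotides act in S phase, while cyclins, Cdk1, the Aurora and Polo kinases, the kinetochore and spindle motors act from late G2 through mitosis. Many of these transcripts are low in resting cells and are made in waves, with E2F factors acting on early genes and the DREAM and MuvB complexes acting on late genes through elements named CDE and CHR. Resident fibroblasts of the adult colon divide rarely, whereas the lower crypt epithelium divides constantly and depends on Wnt signals that Apc restrains. Indian hedgehog is made by the colonic epithelium and read by fibroblasts, where Gli1, Ptch1 and Hhip are its target genes.

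Values are the authors' log2 signals, and a difference of 1 is a doubling. The array medians lay between 4.96 and 5.14, and the correlation between arrays over all genes was between 0.977 and 0.995. The fibroblast genes Dcn, at 12.43 to 12.60, and Pdpn, which encodes gp38, at 10.70 to 11.08, were high on every array. Ptprc, which encodes CD45, stayed between 2.82 and 3.21, at the level of the antigenomic background probe sets, whose array medians were 2.68 to 3.15. Pecam1, which encodes CD31, lay between 4.99 and 6.51. Epcam, which the sort selected against, ranged from 4.73 to 8.11, and Krt8, an epithelial keratin, went with it (r = 0.96 over 24 arrays). The 26 epithelial markers averaged 5.69 to 7.35 on WT arrays, 5.96 to 7.62 on ApcKO arrays and 5.46 to 7.76 on IhhKO_ApcKO arrays. In bulk samples, fewer cells of a type and less RNA per cell cannot be told apart. The number of arrays limits the precision, and no read depth applies.

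One array went against its label. Gli1 was between 7.98 and 8.20 on WT arrays, between 8.03 and 8.47 on ApcKO arrays and between 6.64 and 7.05 on 8 of the 9 IhhKO_ApcKO arrays, while the array labelled IhhKO_ApcKO B9 had 7.99. Ptch1 and Hhip behaved alike, at 9.53 and 8.96 on that array against at most 8.52 and 8.14 on the other 8. Apc and Ihh themselves differed little between the groups (means 6.86, 6.80 and 6.76 for Apc and 6.40, 6.33 and 6.36 for Ihh in WT, ApcKO and IhhKO_ApcKO), and since both are deleted in epithelium they check little in fibroblasts. The comparisons with IhhKO_ApcKO, the counts of slopes and the correlations of the member mean are therefore given also without it. The code letters of the arrays run almost along with genotype (A for WT, B for ApcKO, C for IhhKO_ApcKO, except ApcKO A9 and IhhKO_ApcKO B9), so whatever the letter stands for cannot be told apart from genotype beyond those 2 arrays.

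Levels of the members were low to middling, with a median over the 34 of 5.37 against 5.60 for all genes, and 19 of 34 lay below the median gene. Pcna, the replication clamp, had the highest signal at a mean of 9.90, followed by Tyms, thymidylate synthase, at 7.0 and the helicase subunit Mcm4 at 6.78. Bub1, a checkpoint kinase, at 2.94, and the kinetochore proteins Cenpe, at 3.39, and Nuf2, at 3.39, had the lowest. A signal also depends on the probes, so this order is not an order of RNA amounts. The array's negative controls centred on 4.65, with 8.21 as their 95th percentile. The mean of every member except Pcna lay below that percentile, as did Epcam on every array (at most 8.11). The members varied more over the arrays than most genes, with a median SD of 0.19 against 0.15 over all genes.

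Mki67, which coats mitotic chromosomes and marks dividing cells, varied most, by 11.2-fold over the arrays. On the WT arrays it was 5.15 on A1, 4.93 on A2, 5.40 on A3, 4.96 on A4, 5.52 on A5, 6.18 on A6 and 5.79 on A8. On the ApcKO arrays it was 6.62 on A9, 7.04 on B1, 5.34 on B2, 4.90 on B3, 5.69 on B4, 5.33 on B5, 6.45 on B7 and 6.70 on B8. On the IhhKO_ApcKO arrays it was 7.40 on B9, 5.82 on C1, 4.95 on C2, 4.42 on C3, 5.24 on C4, 5.79 on C5, 6.31 on C6, 7.90 on C7 and 6.66 on C9. The ranges overlapped, and the IhhKO_ApcKO group held both the lowest and the highest array. The highest WT array, A6 at 6.18, lay below the highest of ApcKO, B1 at 7.04, and of IhhKO_ApcKO, C7 at 7.90. Top2a, the topoisomerase that untangles replicated DNA, ranged from 4.11 to 4.71 with a median of 4.29 in WT, from 4.29 to 4.97 with a median of 4.61 in ApcKO, and from 4.12 to 5.48 with a median of 4.51 in IhhKO_ApcKO. Its highest array was again IhhKO_ApcKO C7.

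Among the cyclins and mitotic kinases, Cdk1, the kinase that drives entry into mitosis, had a lowest, median and highest value of 5.03, 5.13 and 5.37 in WT, 5.10, 5.51 and 5.76 in ApcKO, and 4.85, 5.32 and 5.96 in IhhKO_ApcKO. Its partner cyclin Ccna2 had 5.07, 5.35 and 5.66 in WT, 5.24, 5.76 and 6.15 in ApcKO, and 5.23, 5.53 and 6.58 in IhhKO_ApcKO. The B-type cyclin Ccnb2 had 5.84, 6.11 and 6.17 in WT, 5.86, 6.16 and 6.54 in ApcKO, and 5.95, 6.16 and 6.89 in IhhKO_ApcKO. These 3 genes overlapped between all genotypes, and each had its highest value on IhhKO_ApcKO C7. Plk1, the Polo kinase of mitotic entry and exit, had 6.06, 6.13 and 6.36 in WT, 6.10, 6.43 and 6.87 in ApcKO, and 6.21, 6.41 and 6.77 in IhhKO_ApcKO. The medians of both deleted groups lay above the highest WT array, yet the ranges overlapped. Aurka, the kinase of the spindle poles, was flatter, at 5.57 to 6.10 in WT, 5.62 to 5.91 in ApcKO and 5.66 to 6.16 in IhhKO_ApcKO, and Aurkb, the kinase of the chromosome passenger complex, averaged 5.20.

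Of the checkpoint and anaphase group, Ube2c, the ubiquitin-conjugating enzyme of the anaphase-promoting complex, had a lowest, median and highest value of 6.03, 6.26 and 6.47 in WT, 6.2, 6.59 and 6.97 in ApcKO, and 6.25, 6.59 and 6.75 in IhhKO_ApcKO. The WT arrays lay low, but overlapped both other groups. Bub1b, a checkpoint kinase homologue, averaged 4.82, and Cdc20, the activator of the anaphase-promoting complex, averaged 5.90. Of the spindle genes, Kif11, the motor that pushes spindle poles apart, had 3.96, 4.10 and 4.29 in WT, 4.04, 4.35 and 5.16 in ApcKO, and 4.05, 4.30 and 5.19 in IhhKO_ApcKO. Kif23, a motor of the central spindle, had 4.72, 4.97 and 5.22 in WT, 4.69, 5.18 and 5.71 in ApcKO, and 4.79, 5.11 and 6.19 in IhhKO_ApcKO. Both motors spread more widely in the deleted groups than in WT. Tpx2, which starts spindle assembly near chromosomes, had 5.06, 5.32 and 5.62 in WT, 5.13, 5.42 and 5.83 in ApcKO, and 5.14, 5.47 and 5.85 in IhhKO_ApcKO. The kinetochore subunit Nuf2 ranged from 3.22 to 3.70 in WT, 3.23 to 3.54 in ApcKO and 3.24 to 3.88 in IhhKO_ApcKO, and the kinetochore motor Cenpe from 3.26 to 3.46, 3.21 to 3.55 and 3.23 to 3.83. The genotypes overlapped for all 3. The remaining spindle, cytokinesis and kinetochore genes (Kif20a, Prc1, Racgap1, Anln, Birc5, Cenpf and Ndc80) had mean levels from 4.29 for Cenpf to 5.66 for Birc5.

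Of the replication genes, Pcna and Mcm2 varied little. Pcna had a lowest, median and highest value of 9.75, 9.87 and 10.01 in WT, 9.75, 9.83 and 10.01 in ApcKO, and 9.79, 9.90 and 10.19 in IhhKO_ApcKO, a 1.36-fold range over all arrays. Mcm2, a subunit of the replicative helicase, had the narrowest range of all members at 1.33-fold, with 6.41 to 6.69 in WT, 6.48 to 6.80 in ApcKO and 6.39 to 6.79 in IhhKO_ApcKO. Rrm2, the small subunit of ribonucleotide reductase, lay between 4.98 and 5.73 in WT, 5.02 and 5.52 in ApcKO, and 4.96 and 5.53 in IhhKO_ApcKO, a wider 1.71-fold range. The genotypes overlapped for all 3 genes. Mcm5, another helicase subunit, spread more, over 2.10-fold, with a lowest, median and highest value of 6.05, 6.25 and 6.47 in WT, 6.24, 6.43 and 6.79 in ApcKO, and 6.11, 6.40 and 7.13 in IhhKO_ApcKO. Tyms had 6.77, 6.95 and 7.08 in WT, 6.73, 6.95 and 7.31 in ApcKO, and 6.63, 7.04 and 7.43 in IhhKO_ApcKO. These 2 genes reached their highest values in the IhhKO_ApcKO group and overlapped between all genotypes. Ccne2, a cyclin of S phase entry, ranged over 2.34-fold, whereas Mcm3, Mcm6 and Cdc6, which loads the helicase, averaged 6.45, 6.57 and 5.70.

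**Figure D1:**
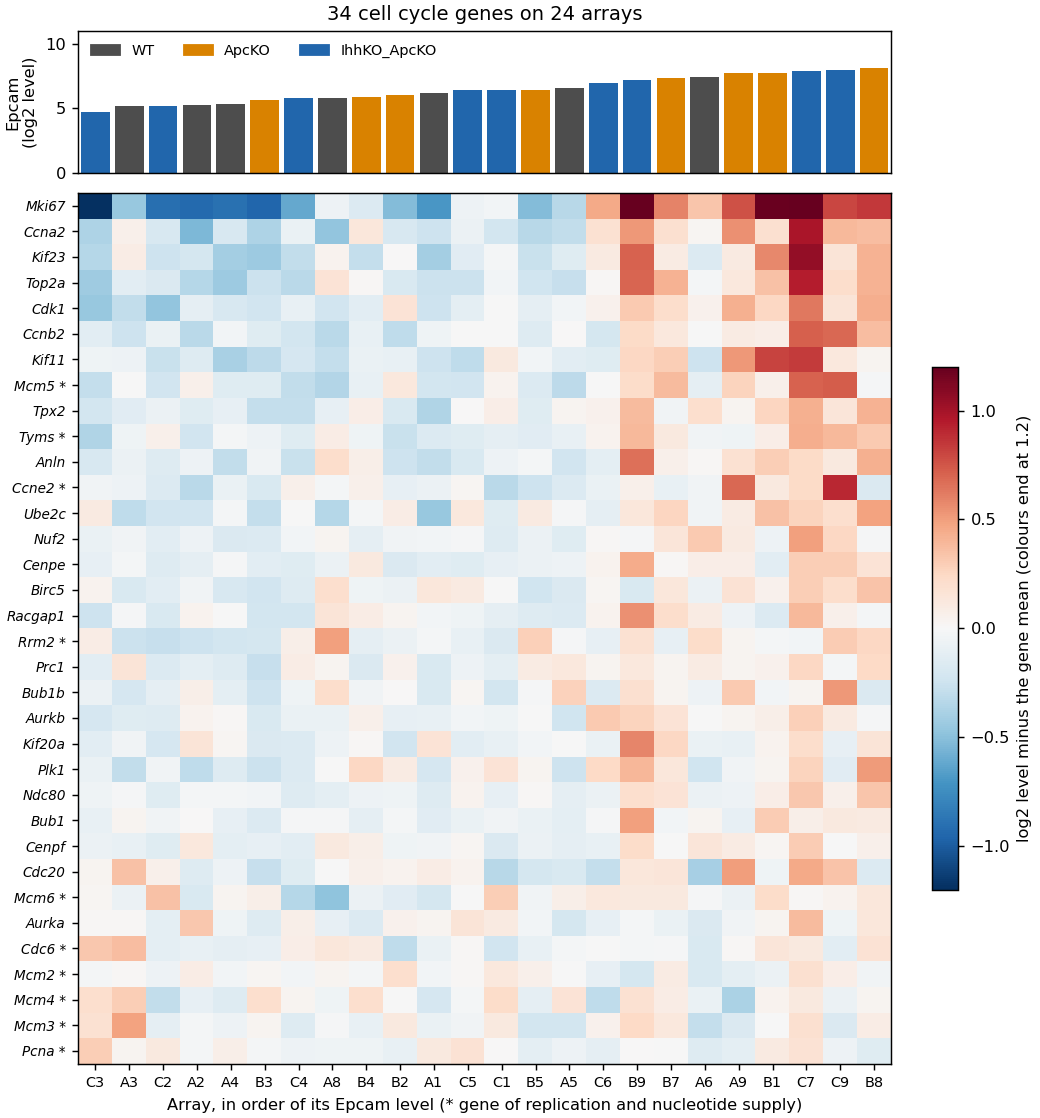
Log2 level of each of the 34 measured cell cycle genes (rows, ordered by their slope on Epcam, replication genes marked with an asterisk) on each of the 24 arrays (columns, ordered by Epcam level), as the difference from that gene's mean; the colour scale ends at 1.2. Mki67, Cdk1 and Top2a tend to be higher on the arrays with more Epcam, while Mcm2 and Pcna vary little.

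Promoter letters are shown for 3 mitotic members that moved together across the arrays (Mki67, Cdk1 and Top2a) and for 2 replication members that did not move with them (Pcna and Mcm6). Each is the stretch of 150 bases just before the annotated start, read 5′ to 3′ on the gene's own strand, from RefSeq on GRCm38.p6. All 5 genes lie on the minus strand, at chr7:135716380-135716529 for Mki67, chr10:69352913-69353062 for Cdk1, chr11:99024190-99024339 for Top2a, chr2:132253181-132253330 for Pcna and chr1:128359706-128359855 for Mcm6. Capitals mark the CHR core TTTGAA, the CCAAT box CCAAT and the E2F cores GCGGGAA and TTTGGCG, on either strand.
Mki67: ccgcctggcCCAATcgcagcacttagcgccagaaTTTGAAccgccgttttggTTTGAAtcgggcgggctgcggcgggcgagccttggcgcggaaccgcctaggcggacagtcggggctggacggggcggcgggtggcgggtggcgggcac
Cdk1: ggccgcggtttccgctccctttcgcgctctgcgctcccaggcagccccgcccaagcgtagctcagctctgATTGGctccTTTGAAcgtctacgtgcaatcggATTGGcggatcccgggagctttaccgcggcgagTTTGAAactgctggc
Top2a: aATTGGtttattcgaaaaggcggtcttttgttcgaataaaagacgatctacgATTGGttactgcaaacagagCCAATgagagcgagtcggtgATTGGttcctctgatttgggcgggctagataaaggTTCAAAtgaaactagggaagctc
Pcna: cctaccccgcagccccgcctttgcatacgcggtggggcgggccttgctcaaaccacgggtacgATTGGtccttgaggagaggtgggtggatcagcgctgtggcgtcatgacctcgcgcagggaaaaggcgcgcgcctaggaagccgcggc
Mcm6: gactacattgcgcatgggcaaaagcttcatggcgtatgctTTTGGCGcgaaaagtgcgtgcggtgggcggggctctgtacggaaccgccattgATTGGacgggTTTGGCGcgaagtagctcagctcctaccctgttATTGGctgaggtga
The Mki67, Cdk1 and Top2a stretches hold CHR letters, and the Mcm6 stretch holds E2F letters. Of the 35 members, 29 matched a RefSeq promoter, and the 250 bases before the start were searched on both strands, with each motif counted on its own also where it overlapped another. The CHR core was found in 9 of 29 members (31.0%) and in 16% of all 32851 promoters, in 8 of 21 mitotic and 1 of 8 replication members. The CCAAT box was found in 23 of 29 members (79.3%) against 33.8% of all promoters. An E2F core was found in 3 of 29 members (10.3%) against 4.94%, namely in 3 of 8 replication and 0 of 21 mitotic members. The 5 stretches shown are examples. Kif23, which also moved with Mki67, had no CHR core in the 250 bases, and the replication member Mcm5, whose slope on Epcam passed (below), held an E2F core. Among members whose Epcam slope passed, 4 of 9 had the CHR core, 7 of 9 the CCAAT box and 1 of 9 an E2F core. Among those whose slope did not pass, these were 5, 15 and 2 of 19. A match describes letters only, and the shares were not tested.

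Between genotypes, no member passed in any of the 3 comparisons. Each was fitted with limma across all 30827 genes, with Benjamini-Hochberg adjustment over all of them and a threshold of 0.05. Of all genes, 0% passed for ApcKO minus WT, 0.0454% (14 genes) for IhhKO_ApcKO minus ApcKO and 0.0811% (25 genes) for IhhKO_ApcKO minus WT. Among the 34 members, 0 passed in each, where 4, 0 and 4 had an unadjusted p under 0.05, as did 1360, 1524 and 2350 of all genes. No member separated the groups without overlap in any comparison, and of all genes 0.00649%, 0.0227% and 0.0714% did so in the same order.

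For ApcKO minus WT, 26 of 34 members had a positive difference, with a median of 0.063 against −0.021 over all genes, of which 39.4% were positive. Ube2c had a difference of 0.33 (SE 0.097, 95% interval 0.14 to 0.53, limma adjusted p = 0.970), a 1.26-fold ratio, and Plk1 of 0.30 (SE 0.093, interval 0.11 to 0.49, adjusted p = 0.970), each with 7 of 8 ApcKO arrays above the WT mean. Kif11 had 0.36 (SE 0.15) and Cdk1 0.28 (interval 0.011 to 0.55), also with an adjusted p of 0.970. For Mki67 the difference was 0.59 with an interval of −0.26 to 1.44, so neither no difference nor a 2-fold one lies outside it. Top2a had 0.27, Mcm2 0.035, Rrm2 0.012 and Pcna −0.044. The mean over the 34 members was 5.34 ± 0.051 (SD, n = 7) in WT and 5.45 ± 0.14 (SD, n = 8) in ApcKO, a difference of 0.12 beside a pooled SD of 0.11. With 1 array left out at a time, the median over the members lay between 0.044 (without ApcKO B8) and 0.096 (without ApcKO B3).

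Epcam itself differed by 0.90 between ApcKO and WT, which did not pass (SE 0.47, interval −0.062 to 1.86, limma adjusted p = 0.970). It had a lowest, median and highest value of 5.18, 5.85 and 7.43 in WT and 5.67, 6.92 and 8.11 in ApcKO, and the groups overlapped. With Epcam in the model, the ApcKO minus WT difference was positive for 15 of 34 members with a median of −0.0049. Over all genes 38.3% were then positive, with a median of −0.028. The difference of the member mean was 0.0047 in place of 0.12. Mki67 then had −0.11, Cdk1 0.069, Kif11 0.19, and Plk1 and Ube2c 0.23 each. The Mki67 value had thus moved from 0.59 to the other side of 0, and that of Plk1 from 0.30 to 0.23. With the mean of the epithelial markers in the model in place of Epcam, 21 of 34 members were positive, with a median of 0.026. Of all genes 38.4% were, with a median of −0.026. The part of either measure in these differences was not tested.

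For IhhKO_ApcKO minus ApcKO, the comparison that adds the loss of Indian hedgehog, 21 of 34 members were positive with a median of 0.033 against 0.011 over all genes (56.6% positive). The members with the smallest p were Pcna, at 0.11 (SE 0.056, limma adjusted p = 1.00), Aurka, at 0.081 (SE 0.071), Ube2c, at −0.094 (SE 0.091), and Cdk1, at −0.13 (SE 0.12). Mki67 had 0.046 with an interval of −0.75 to 0.84, which leaves room for a change in either direction. Top2a had −0.0084, Plk1 −0.016, Mcm2 −0.020 and Rrm2 −0.0079. Without IhhKO_ApcKO B9 the median was 0.0037 with 19 members positive and the Mki67 difference was −0.12, and without IhhKO_ApcKO C7 the median was −0.021 with 13 positive. No member passed in either case, while 41 of 30827 genes passed without B9 and 9 without C7, against 14 in the main fit. The medians over all genes were 0.014 without B9 and 0.0079 without C7, with 58.1% and 54.4% positive. Epcam had a lowest, median and highest value of 4.73, 6.45 and 7.96 in IhhKO_ApcKO, a difference of −0.37 from ApcKO that did not pass (limma adjusted p = 1.00). With Epcam in the model, 27 of 34 members were positive with a median of 0.062, against 0.014 over all genes (57.9% positive). With the mean of the epithelial markers in its place, 26 were positive, also with a median of 0.062, against 0.015 over all genes (58.1% positive). The part of Epcam in the members' differences was not tested.

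For IhhKO_ApcKO minus WT, 32 of 34 members were positive with a median of 0.089 against −0.011 over all genes (44.9% positive). Plk1 had the smallest p of the members, with a difference of 0.28 (SE 0.090, limma adjusted p = 0.328) and 9 of 9 IhhKO_ApcKO arrays above the WT mean. Ube2c had 0.24 (SE 0.094, adjusted p = 0.521), Mcm6 0.19 (SE 0.086, adjusted p = 0.608) and Ccna2 0.37 (SE 0.16, adjusted p = 0.609). Mki67 had 0.64 with an interval of −0.19 to 1.46, Top2a 0.26, Cdk1 0.15, Pcna 0.070, Mcm2 0.014 and Rrm2 0.0038. Without IhhKO_ApcKO B9, 28 members were positive with a median of 0.079, Plk1 had 0.24 (limma adjusted p = 0.403) and Mki67 0.47. Over all genes the median was then −0.0072, with 46.4% positive. No member passed without B9, while 67 of 30827 genes did, against 25 in the main fit. With Epcam in the model, Plk1 had 0.24, Ube2c 0.18 and Mki67 0.22. The ApcKO and IhhKO_ApcKO comparisons share their WT arrays, so their directions are not independent.

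**Figure D2:**
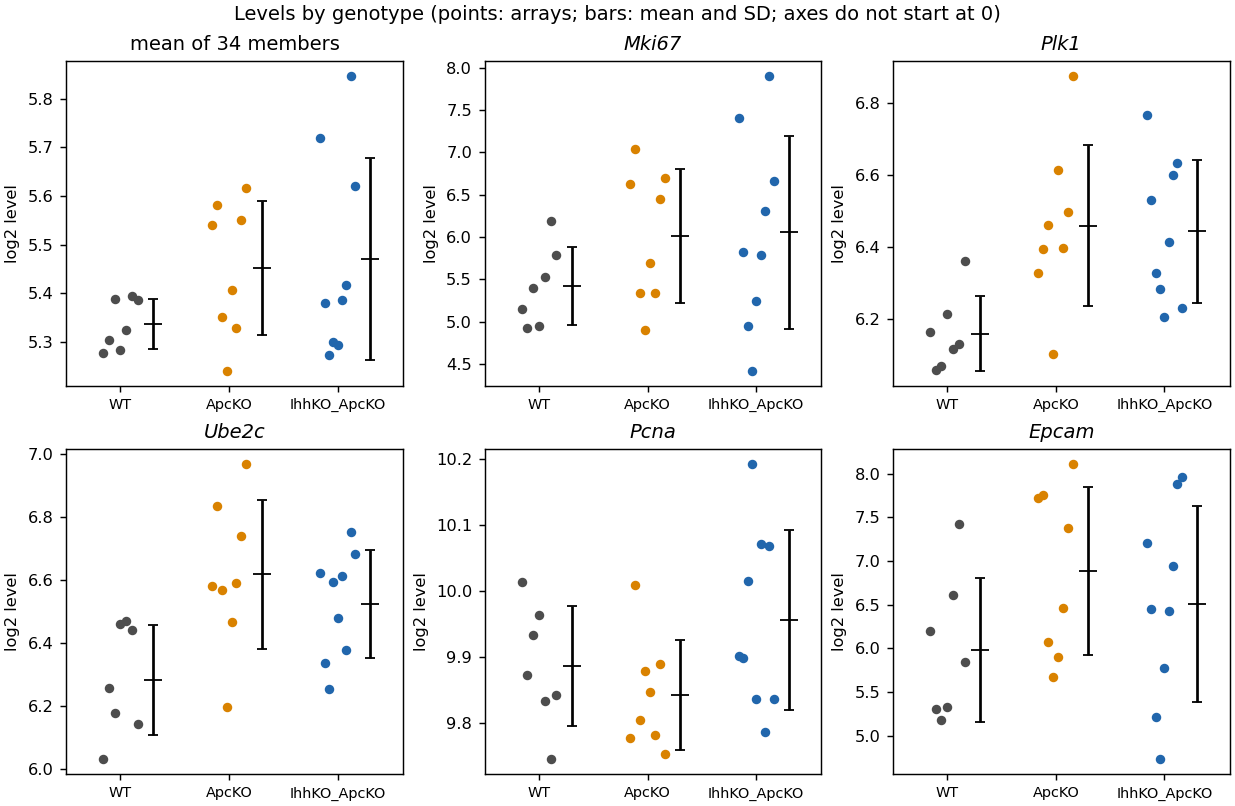
Log2 level of the member mean, Mki67, Plk1, Ube2c, Pcna and Epcam by genotype, with 1 point per array and bars for the mean and SD (7 WT, 8 ApcKO and 9 IhhKO_ApcKO arrays; the axes do not start at 0). The groups overlap in every panel, and the highest member mean is 5.85, on IhhKO_ApcKO C7.

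**Figure D3:**
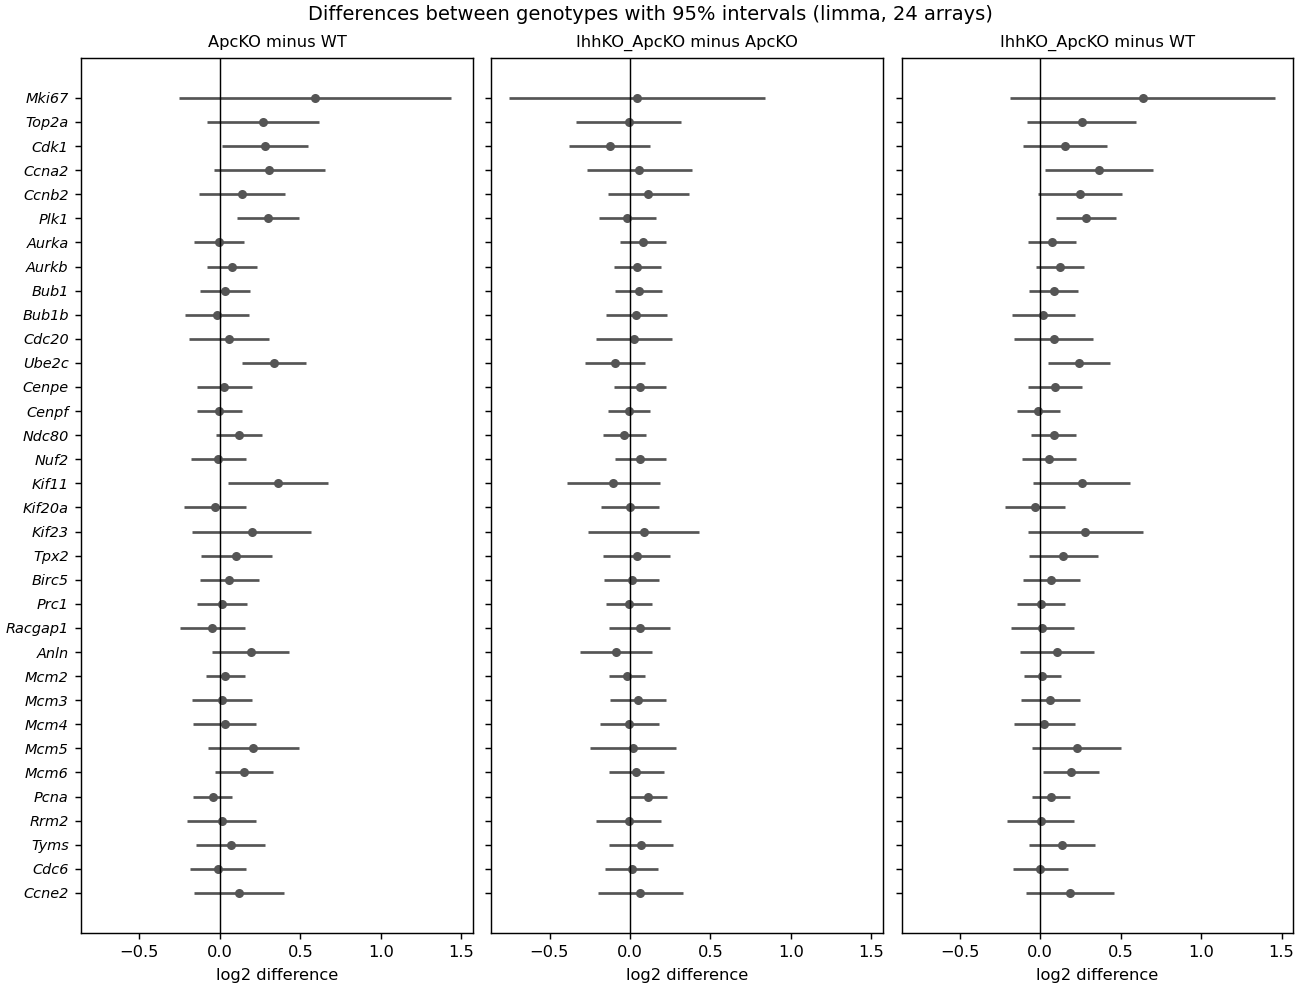
Log2 difference between genotypes for each of the 34 members, with its 95% interval from limma, in 3 panels for the 3 comparisons. Most differences of ApcKO and IhhKO_ApcKO from WT lie above 0, and none passed after adjustment over all genes.

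Across arrays, 9 of 24 mitotic members and 2 of 10 replication members rose with Epcam. With genotype as a term in limma, 11 of 34 members had a slope on Epcam that passed over 30826 genes, all 11 upward, where 2.24% of all genes passed upward and 0.441% downward. They were the mitotic members Mki67, Cdk1, Ccnb2, Tpx2, Ccna2, Top2a, Kif23, Nuf2 and Cenpe and the replication members Tyms and Mcm5. All 24 mitotic members and 5 of 10 replication members had a positive slope, and 25 of 34 had an unadjusted p under 0.05. The median slope was 0.10 for mitotic and 0.0071 for replication members, and 0.0042 over all genes, of which 53.8% were positive. The difference between mitotic and replication members was not tested.

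Mki67 had a slope of 0.78 per unit of log2 Epcam (SE 0.082, 95% interval 0.61 to 0.95, limma adjusted p = 3.93e-07), a 1.72-fold rise for each doubling of Epcam. Cdk1 had 0.23 (SE 0.031, interval 0.17 to 0.30, adjusted p = 1.50e-05), and Ccnb2 0.21 (SE 0.037, adjusted p = 0.00104). Tpx2 had 0.17 (SE 0.032, adjusted p = 0.00149), Ccna2 0.26 (SE 0.050, adjusted p = 0.00167) and Top2a 0.26 (SE 0.051, adjusted p = 0.00250). These slopes amount to rises between 1.13-fold and 1.2-fold per doubling of Epcam, and Mki67 rose most of the 6. Kif23 had a slope of 0.26 (adjusted p = 0.00754), Tyms 0.15 (0.00986) and Nuf2 0.11 (0.0161). The last calls were close to the threshold: Mcm5 at 0.17 (adjusted p = 0.0477) and Cenpe at 0.11 (adjusted p = 0.0481). On 18 of the 24 fits that left out 1 array Cenpe did not pass, and Mcm5 did not on 14.

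Some members showed little relation to Epcam. The largest p-values belonged to Cdc6, with a slope of −0.016 (limma adjusted p = 0.878), Aurka, with 0.016 (adjusted p = 0.865), and Mcm2, with −0.018 (interval −0.070 to 0.034, adjusted p = 0.788). Pcna had −0.039 (interval −0.090 to 0.011, adjusted p = 0.464), Mcm4 −0.032, Mcm3 −0.034, Mcm6 0.030 and Cdc20 0.041. Each of these intervals included 0. Kif11 at 0.19 (adjusted p = 0.0558) and Ube2c at 0.12 (adjusted p = 0.0617) lay just outside the threshold, as did Anln, an actin-binding protein of the cleavage furrow, at 0.14 and Prc1, which bundles the central spindle, at 0.090. Plk1 had 0.074 (adjusted p = 0.354) and Rrm2 0.095 (adjusted p = 0.261). Plk1, the member with the smallest p between IhhKO_ApcKO and WT, did not pass on Epcam.

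**Figure D4:**
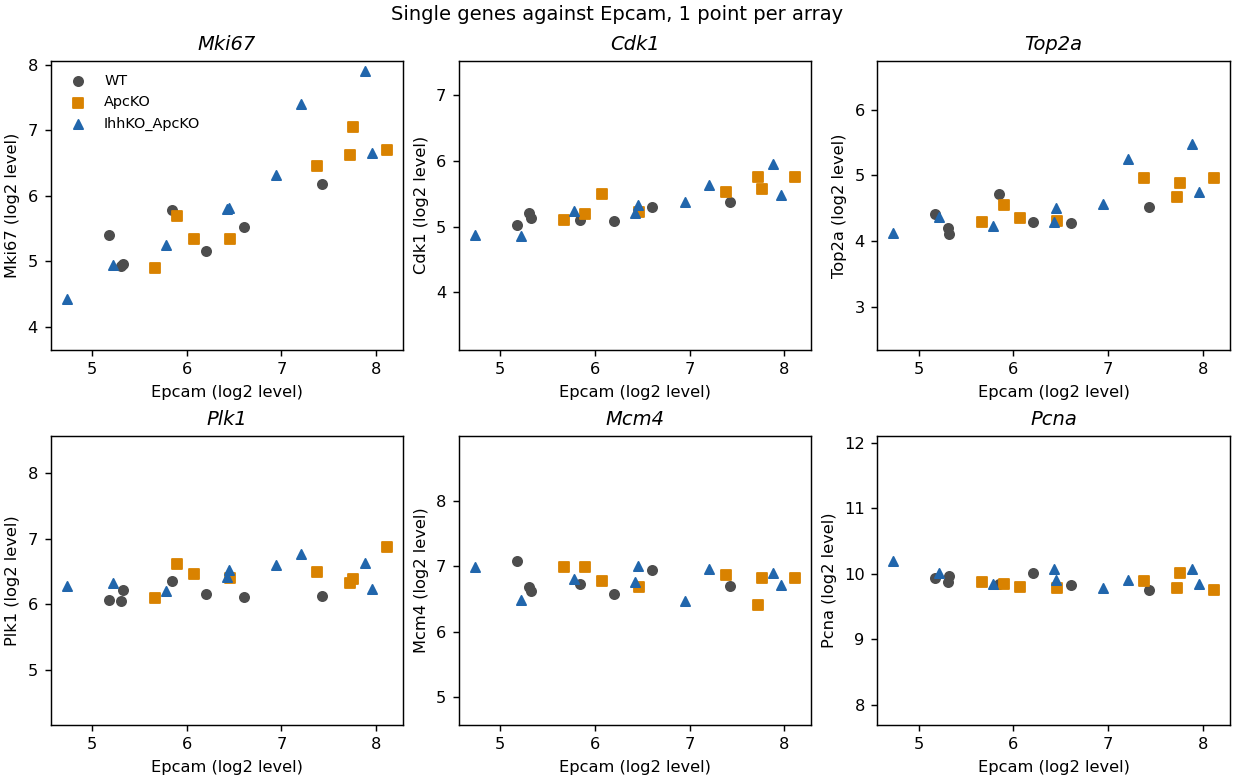
Log2 level of Mki67, Cdk1, Top2a, Plk1, Mcm4 and Pcna (vertical axis, same span in each panel) against log2 Epcam (horizontal axis) on the 24 arrays, with colours for the 3 genotypes. Mki67 climbs from 4.42 at the lowest Epcam, 4.73, to 7.90 on IhhKO_ApcKO C7, while Mcm4 and Pcna stay level.

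**Figure D5:**
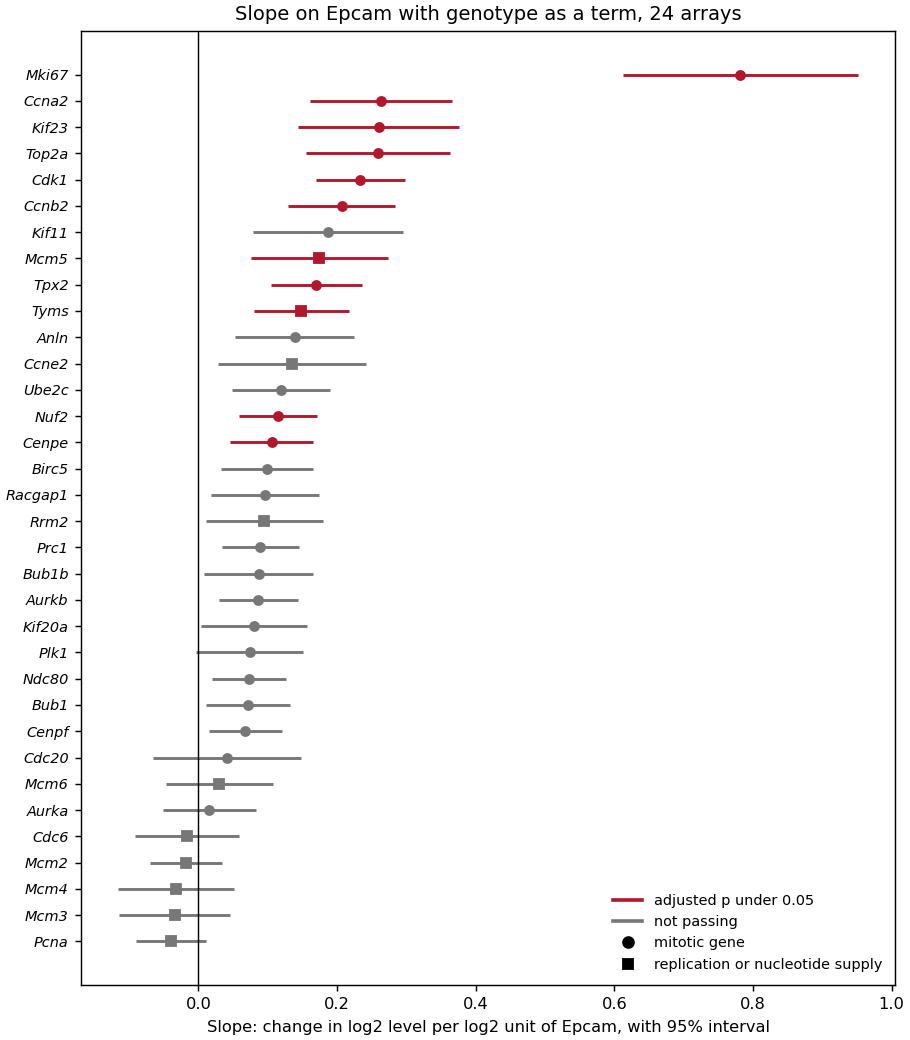
Slope of each of the 34 members on log2 Epcam with genotype in the model, with its 95% interval from limma, where red marks an adjusted p under 0.05. Mki67 stands alone at 0.78, and Cdc6, Mcm2, Mcm3, Mcm4 and Pcna lie at or below 0.

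The 7 arrays with the highest member mean had high Epcam. The member mean was 5.85 on IhhKO_ApcKO C7, where 33 of 34 members lay above their own mean and 13 had their highest value. On IhhKO_ApcKO B9 it was 5.72, and 29 lay above. IhhKO_ApcKO C9 and ApcKO B8 followed at 5.62 each, then ApcKO B1 at 5.58, ApcKO B7 at 5.55 and ApcKO A9 at 5.54. These 7 arrays had Epcam between 7.20 and 8.11. WT A6 was an exception, with Epcam at 7.43 and a member mean of 5.39, below ApcKO B4 at 5.41, whose Epcam was 5.90. Its member mean was the highest of the WT arrays, in a narrow WT range that began at 5.28. As a description, the member mean had r = 0.80 and rho = 0.78 with Epcam over 24 arrays, and r = 0.79 with the group means taken out. Without IhhKO_ApcKO B9 it was 0.81 over 23 arrays. Without the 2 arrays farthest from the median Epcam level (IhhKO_ApcKO C3 and ApcKO B8) r was 0.79. Within genotypes r was 0.28 over 7 WT, 0.94 over 8 ApcKO and 0.85 over 9 IhhKO_ApcKO arrays (0.86 over the 8 without B9).

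The slopes were also fitted within each genotype. Mki67 had 0.42 in WT (limma adjusted p = 0.644), 0.77 in ApcKO (adjusted p = 0.00366) and 0.94 in IhhKO_ApcKO (adjusted p = 0.00309). Cdk1 had 0.12, 0.23 and 0.28 in the same order, and only the last passed (adjusted p = 0.0173). Within IhhKO_ApcKO without B9, Mki67 had 0.88 (limma adjusted p = 0.00367) and Cdk1 0.27 (adjusted p = 0.0324). Of the 34 members, 20 had a positive slope in WT, 32 in ApcKO and 31 in IhhKO_ApcKO, with medians of 0.014, 0.10 and 0.12. Whether slopes differed by genotype was tested as an interaction: 0 of 34 members and 0.00324% of all genes (1 gene) passed, with 3 members and 2324 genes at an unadjusted p under 0.05. Among these 3, Mcm5 had the smallest p, 0.00209 (limma adjusted p = 0.50). Without B9, 0 of 34 members and 3 genes passed the interaction test, with 3 members and 2409 genes at an unadjusted p under 0.05. A difference in slope between genotypes is therefore not shown.

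Fewer members passed on Krt8 than on Epcam. Krt8 had a lowest, median and highest value of 6.48, 7.51 and 9.67 in WT, 7.02, 8.95 and 10.10 in ApcKO, and 5.59, 8.69 and 10.06 in IhhKO_ApcKO. On Krt8, 6 of 34 members passed, all upward, where 1.44% of all genes passed upward and 0.0941% downward. Mki67 had a slope of 0.56 (interval 0.39 to 0.73, limma adjusted p = 0.000106), Cdk1 0.17 (adjusted p = 0.000521), Tpx2 0.12 (0.0234), Ccna2 0.18 (0.0234), Ccnb2 0.14 (0.0425) and Top2a 0.17 (0.0473). All 6 were also among the 11 that rose with Epcam, and since both markers were read from the same arrays the Krt8 calls are no separate evidence. Ccnb2 was lost on 20 of the fits that left out 1 array and Top2a on 19. Without IhhKO_ApcKO B9, 4 members passed (Mki67, Cdk1, Tpx2 and Ccna2), as did 437 of 30826 genes upward. The count was 2 without ApcKO B3 (beside 369 of all genes upward) or IhhKO_ApcKO C3 (401), and 3 without WT A6 (407) or IhhKO_ApcKO C7 (395). Of the 34 members, 29 were positive, and the median slope was 0.065 against 0.0011 over all genes.

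Some leukocyte markers also had a slope on Epcam. The 14 markers averaged 5.22 to 5.50 on WT arrays, 5.26 to 5.52 on ApcKO arrays and 5.29 to 5.72 on IhhKO_ApcKO arrays, the last highest on C9 (5.72) and B9 (5.68), and 3 of 14 passed on the Epcam slope (Lyz2 at 0.33, Tyrobp at 0.23 and Cd14 at 0.19). The defining marker Ptprc, at or near the antigenomic background on every array, had a slope of 0.049 (limma adjusted p = 0.276). On the leukocyte marker mean itself, 9 of 34 members passed upward, where 4.52% of all genes passed upward and 2.12% downward. These 9 were Ccnb2, Cenpe, Racgap1, Mcm5, Ndc80, Kif20a, Tyms, Cenpf and Bub1b. Mki67 had the largest slope of the members, 3.82 (interval 1.29 to 6.36), with a limma adjusted p of 0.0588. Of the 26 epithelial markers, 12 also passed upward on the leukocyte marker mean. Without B9, 7 members passed on it (Ccnb2, Mcm5, Cenpe, Ndc80, Racgap1, Nuf2 and Birc5), as did 2537 of 30827 genes upward. With the leukocyte mean as a further term, 4 members and 362 genes passed upward on the Epcam slope (the members Mki67, Cdk1, Ccna2 and Tpx2), Mki67 with 0.75 and Cdk1 with 0.21. Of the other marker lists, 21 of 25 epithelial markers (Epcam itself left out), 2 of 2 markers of interstitial cells of Cajal (Kit at 0.22 and Ano1 at 0.26), 1 of 8 of blood endothelium and 0 of 10 of fibroblasts passed on the Epcam slope, where 2.24% of all genes passed upward. The epithelial stem cell markers Lgr5, at 0.085, and Ascl2, at 0.057, did not. All 8 blood endothelial markers had a positive Epcam slope, with a median of 0.13 and 6 at an unadjusted limma p under 0.05. Of the 14 leukocyte markers 13 were positive, with a median of 0.036 and 5 under 0.05. The part of these cells in the members' slopes was not tested.

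Without IhhKO_ApcKO B9, 9 members passed on the Epcam slope beside 675 of all 30826 genes upward, and without C7, 8 did beside 609. With both left out 7 passed beside 587 (Mki67, Cdk1, Top2a, Ccnb2, Ccna2, Tpx2 and Kif23), with a slope of 0.66 for Mki67 and 0.20 for Cdk1.

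The members did not vary as 1 block. With group means taken out, the median r between pairs of mitotic members was 0.53 over 276 pairs, against 0.099 over 45 pairs of replication members and 0.16 over 240 mixed pairs, as a description over 24 arrays that share the variation of Epcam. Without B9 these medians were 0.54, 0.083 and 0.17. The members closest to Mki67 were Top2a (r = 0.93), Kif23 (0.90), Cdk1 (0.89), Ccna2 (0.87) and Tpx2 (0.86), and Tyms (0.81) was the closest replication gene. Mcm4 (0.011), Mcm2 (−0.15) and Pcna (−0.22) had no such relation. Without B9, Top2a had 0.92, Kif23 0.89, Mcm4 −0.070, Mcm2 0.016 and Pcna −0.19. Among genes outside the list, and over all 24 arrays, the 10 most like the member mean were Kif4 (0.92), Gm11223 (0.91), Kif15 (0.91), mt-Tk (0.90), Depdc1a (0.90), Stil (0.90), Tnip3 (0.90), Cftr (0.90), Cd24a (0.89) and Dlgap5 (0.89). Kif4 and Kif15 are mitotic motors, Cftr is an epithelial chloride channel and Cd24a a surface protein of crypt epithelium among other cells. Over all 30827 genes 80 had r above 0.8, and 10 of the 34 members did, which are themselves part of that mean.

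Other cell cycle genes were read from 4 further lists. Between genotypes, 0 of 62 other mitotic genes, 0 of 45 other replication and S phase genes, 0 of 14 G1 regulators and 0 of 15 cell cycle brakes passed in any comparison. On the Epcam slope, 2.24% of all genes passed upward and 0.441% downward. Of the other mitotic genes, 12 of 62 passed upward, with 56 of 62 positive and a median of 0.061, led by Spc24, a kinetochore subunit, at 0.25 (limma adjusted p = 0.000115) and Kif15 at 0.12 (adjusted p = 0.000874). Of the other replication genes, 3 of 45 passed upward (30 positive, median 0.035), led by E2f8, an E2F family repressor, at 0.15 (adjusted p = 0.000338) and Gmnn, geminin, which blocks renewed licensing, at 0.20 (adjusted p = 0.0167). None of the 14 G1 regulators passed, with Ccnd3, a D-type cyclin, at −0.080 (adjusted p = 0.107) and Mycn at −0.076. Of the 15 brakes, Btg1, an antiproliferative factor, fell with a slope of −0.14 (adjusted p = 0.0437), and Tob1 had −0.11 (adjusted p = 0.169). On the Krt8 slope 4 of 62 and 1 of 45 passed upward, where 1.44% of all genes did. Among the 4 were Spc24 at 0.16 (limma adjusted p = 0.0123) and Kif15 at 0.083 (0.0198), and the 1 was E2f8 at 0.11 (0.00564).

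The genes with the smallest p in these lists between genotypes had small differences, none of which passed. For ApcKO minus WT, the mitotic genes Kif20b and Sgo1 had 0.18 and 0.17, the replication genes Dbf4 and Rfc5 0.24 and −0.17, the G1 regulators Skp2 and Ccnd3 −0.17 and 0.062, and the brakes Cdkn2d and Tob1 −0.23 and −0.13. For IhhKO_ApcKO minus ApcKO, Cks2 and Ckap2 had 0.19 and 0.13, Cdc7 and Brca2 0.15 and −0.16, Mycn and E2f4 −0.16 and 0.12, and Cdkn2d and Btg2 0.24 and −0.099. For IhhKO_ApcKO minus WT, Cenpw and Gtse1 had 0.34 (limma adjusted p = 0.357) and 0.16, Dbf4 and Cdc7 0.21 and 0.17, Rb1 and E2f4 0.25 and 0.18, and Cdkn1a and Btg2 0.16 and −0.066. Of the 15 brakes, 7 had a positive difference for ApcKO minus WT and 8 for IhhKO_ApcKO minus ApcKO.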

How the data were processed

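Per the labels' protocols, RNA of sorted cells was amplified, biotin-labelled and hybridised to Affymetrix MTA arrays. The authors deposited log2 values, 1 column per array, made by RMA per the submitters' processing notes. The RMA software, its version and the build were not given in the sources used here. RMA sets all arrays to 1 distribution and pulls low signals together, so differences of dim genes are understated.

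Of 72688 probe sets, 6732 controls were left out. Of the other 65956, 31388 carried 1 gene symbol in the platform annotation, 1362 several and 33206 none. After 1176 symbols were updated through RefSeq, 30827 genes remained, each by its brightest probe set. Groups came from the titles. Differences, slopes on Epcam and Krt8 (genotype as a term) and the interaction were fitted with limma 3.58.1 in R 4.3.3 (lmFit, eBayes) over all genes with Benjamini-Hochberg adjustment at 0.05, and the code was tested on simulated data. Genes named are Mki67, Top2a, Cdk1, Plk1, Pcna, Mcm2 and Rrm2, the 4 members with the smallest p per comparison, the 6 smallest and 3 largest p of the Epcam slope, the 3 highest and 3 lowest signals, the 2 smallest p per other list, and the 10 genes most like the member mean. Other members are given by range, or by value where the text needs them. The members and lists were chosen with earlier results of these data known. The slope on leukocyte markers, the slopes within genotypes, the fits of slopes without B9 and C7 together, and the within-genotype, interaction and leukocyte fits without B9 were added after seeing the data. No array pair was identical.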

Additional observations from a re-analysis of the deposited data

Results flagged for a closer look

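A sample far from the others of its group was looked for in 105 groups of 7 to 9 arrays, with Dixon's test at its 95% critical value, and 7 were found, where chance gives about 1 in 20. Bub1 was 3.43 on IhhKO_ApcKO B9, with the next array of the group at 3.06. Nuf2 was 3.70 on WT A6, with the next at 3.42. Kif11 was 5.19 on IhhKO_ApcKO C7, with the next at 4.60. Mcm3 was 6.93 on WT A3, with the next at 6.44. Mcm6 was 6.23 on IhhKO_ApcKO C4, below the others of its group, of which the lowest was 6.57. Ccne2 was 4.40 on ApcKO A9 and 4.62 on IhhKO_ApcKO C9, with the next arrays at 3.83 and 3.94.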

How the results depend on the processing

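In all 3 genotype comparisons the count of members that passed stayed 0 under every alternative run (array centring, array weights, trend and robust eBayes, a filter on dim genes, the mean over probe sets, code letter or digit as a block, Epcam or epithelial markers as a covariate, and each array left out). The difference of the member mean for ApcKO minus WT was 0.0047 with Epcam as a covariate. In that comparison the median over the members was −0.0049 with Epcam and 0.026 with the epithelial marker mean as the covariate. Over all genes these medians were −0.028 and −0.026. With a block for the code letter, an estimate that only ApcKO A9 and IhhKO_ApcKO B9 inform, the IhhKO_ApcKO member mean differed by 0.28 from ApcKO and by 0.48 from WT, and the IhhKO_ApcKO minus ApcKO difference turned to 0.00061 for Ube2c and 0.23 for Cdk1. On the Epcam slope, 4 members passed among genes at or above the median level (which leaves 15 of 34 members to test), 4 with the leukocyte marker mean as a covariate, 7 without B9 and C7, 0 within WT, 1 within ApcKO and 4 within IhhKO_ApcKO (3 without B9), and 8 to 13 with 1 array left out. Upward, 402 of 15413 genes passed at or above the median level. Of 30826 genes, 362 passed upward with the leukocyte mean and 587 without B9 and C7. Within WT, ApcKO and IhhKO_ApcKO, 60, 225 and 294 genes passed upward (245 in the last without B9), so the counts over all genes also differed. With 1 array left out, 551 to 775 genes passed upward. On the Krt8 slope, the counts were 2 among genes at or above the median level, 3 without the 2 arrays farthest from the median, 2 with the leukocyte mean, 2 without B9 and C7, 0 within WT, 3 within ApcKO and 1 within IhhKO_ApcKO, with or without B9, and 2 to 6 with 1 array left out (2 without ApcKO B3 or IhhKO_ApcKO C3, 3 without WT A6 or IhhKO_ApcKO C7). Over all genes, 283 of 15413 passed upward at or above the median level. Of 30826, 370 passed upward without the 2 farthest arrays, 263 with the leukocyte mean and 378 without B9 and C7. Within WT, ApcKO and IhhKO_ApcKO, 48, 166 and 150 did (125 in the last without B9), and 369 to 506 did with 1 array left out. Within WT the Epcam slope was −0.020 for Kif23 and −0.071 for Mcm5. Fits within 1 genotype have fewer arrays, and the cause of the other changes was not tested. Many members lie within the range of negative control probe sets, which limits what small differences show. The code digits are shared between genotypes, but the labels do not say that a digit marks a litter, batch or day. As a check of pairing over all genes, the correlation of deviations from the group means was taken between arrays of different genotypes. Its median was 0.13 (−0.060 to 0.33) over 20 pairs of arrays with the same digit and −0.023 over 171 pairs with other digits. Of the 20, 12 were over 0.1, against 43 of the 171, and 5 of 24 arrays were closest to one of their own digit. Pairs with the same digit were thus more alike in the median, and whether the digit pairs the arrays was not tested. The main fits did not pair the arrays by digit. With the digit as a block no member passed in any comparison, and 0, 16 and 14 of all genes did. ApcKO then differed from WT by 0.053 in the member mean, with a median over the members of 0.016 and 21 of 34 positive. IhhKO_ApcKO then differed from ApcKO by 0.011 (median 0.016, 22 positive) and from WT by 0.065 (median 0.054, 27 positive).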
